A study of Mus musculus with 6 samples.

Results

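The genes described here encode the bombesin-like peptides, the tachykinins and their receptors. They are Nmb, Nmbr, Grp, Grpr, Tac1, Tac2, Tacr1 and Tacr3, 8 of the 22180 genes tested on the arrays. They were chosen by family name after results of these data were known, and the large differences of Nmbr and Tac1 were known when the family was chosen. The values of Nmbr and Tac1 are therefore given as a description, with no p-value. Where the text says whether they pass the threshold of the fit over all genes, this too is a description, settled in part by the choice, and supports nothing. Each of the 8 genes had a single probe set annotated to it alone, so the rule that takes the brightest probe set by its mean over the 6 arrays had no choice to make.

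RNA was measured in primary cells from the hippocampi of mouse embryos at embryonic day 18. On day 7 after seeding the cells were infected with AAV1/2, a gene-transfer vector derived from adeno-associated virus, and were harvested on day 7 after infection. The virus carried a Diras2 knockdown construct in 3 samples and a scrambled control in the other 3, with 1 expression array per sample. Diras2 is a small GTPase of the Ras family that is expressed in brain. Both groups were infected, so neither shows uninfected cells, and with 1 knockdown construct the loss of Diras2 and other effects of that construct cannot be told apart. The promoter and sequence of the constructs and the mouse strain are not given in the sources used here. The samples are labelled as biological replicates, but no separate cultures or litters are named. The p-values therefore reflect only how these 6 samples varied, and some of that variation may be technical.

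Neuromedin B (from Nmb) and gastrin-releasing peptide (from Grp) are the mammalian relatives of the frog peptide bombesin, and act mainly through Nmbr and Grpr. Tac1 encodes the precursor of substance P and neurokinin A, and Tac2 that of neurokinin B. Substance P prefers the receptor encoded by Tacr1 and neurokinin B that encoded by Tacr3. All 4 receptors are G protein-coupled receptors that act mainly through Gq, phospholipase C and calcium release. In the adult hippocampus, tachykinin precursors are made largely by subsets of inhibitory interneurons.

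Values are log2 expression levels from RMA, on which a difference of 1 is a 2-fold change. Diras2 was at 7.17, 6.23 and 6.08 in the knockdown arrays, against 10.17, 10.17 and 9.76 in the control arrays, 11.6-fold lower. The RNA integrity number was 9, 9.3 and 9.2 for knockdown RNA, against 9.2, 9 and 8.8 for control RNA. Array medians lay between 4.03 and 4.11. Neuronal markers were clearly present, with a mean level over 6 genes of 11.15 to 11.42 in the knockdown arrays and 11.24 to 11.57 in the control arrays. Those of hippocampal excitatory neurons (6 genes) averaged 8.82 to 9.60 in the knockdown arrays and 8.66 to 9.48 in the control arrays, and those of inhibitory neurons (8 genes) 7.36 to 7.70 in the knockdown and 7.54 to 8.18 in the control arrays. Of the 6 microglial markers 3 lay in both groups at or below the level under which 95% of olfactory receptor genes lay, 3.98 in the knockdown and 3.96 in the control arrays. Olfactory receptor genes are mostly silent outside the nose, so this level serves here as a guide to the dim end, in place of detection calls. The 8 genes all lay above it in at least 1 group. With 3 arrays a group, precision is limited by their number.

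Levels were lower in the knockdown arrays for 7 of the 8 genes, the exception being Nmb. The median log2 difference of the 8, knockdown minus control, was -0.70, against 0.00 over all genes tested. Tacr2, Tac4 and Brs3, at -0.03, 0.08 and 0.01, are left out of this median and of the counts below. In the comparison of all arrays by limma with Benjamini-Hochberg adjustment, 2 of the 8 genes, Nmbr and Tac1, were called lower at an adjusted p under 0.05, where 3.64% of all genes were. None was called higher, where 4.17% of all genes were. At an unadjusted p under 0.05 by limma 7 were lower, where 10.0% of all genes were, and 0 higher, where 10.9% were. Every knockdown array was below every control array for 5 of the 8, Nmbr, Tac1, Grpr, Tac2 and Tacr1, where 12.1% of all genes showed this. Nmbr and Tac1 were known to differ when the family was chosen, so nothing is read from these counts. The count called lower was 0 without knockdown replicate 2 or control replicate 2, 1 without knockdown replicate 1 or 3, and 3 without control replicate 1 or 3.

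**Figure D1:**
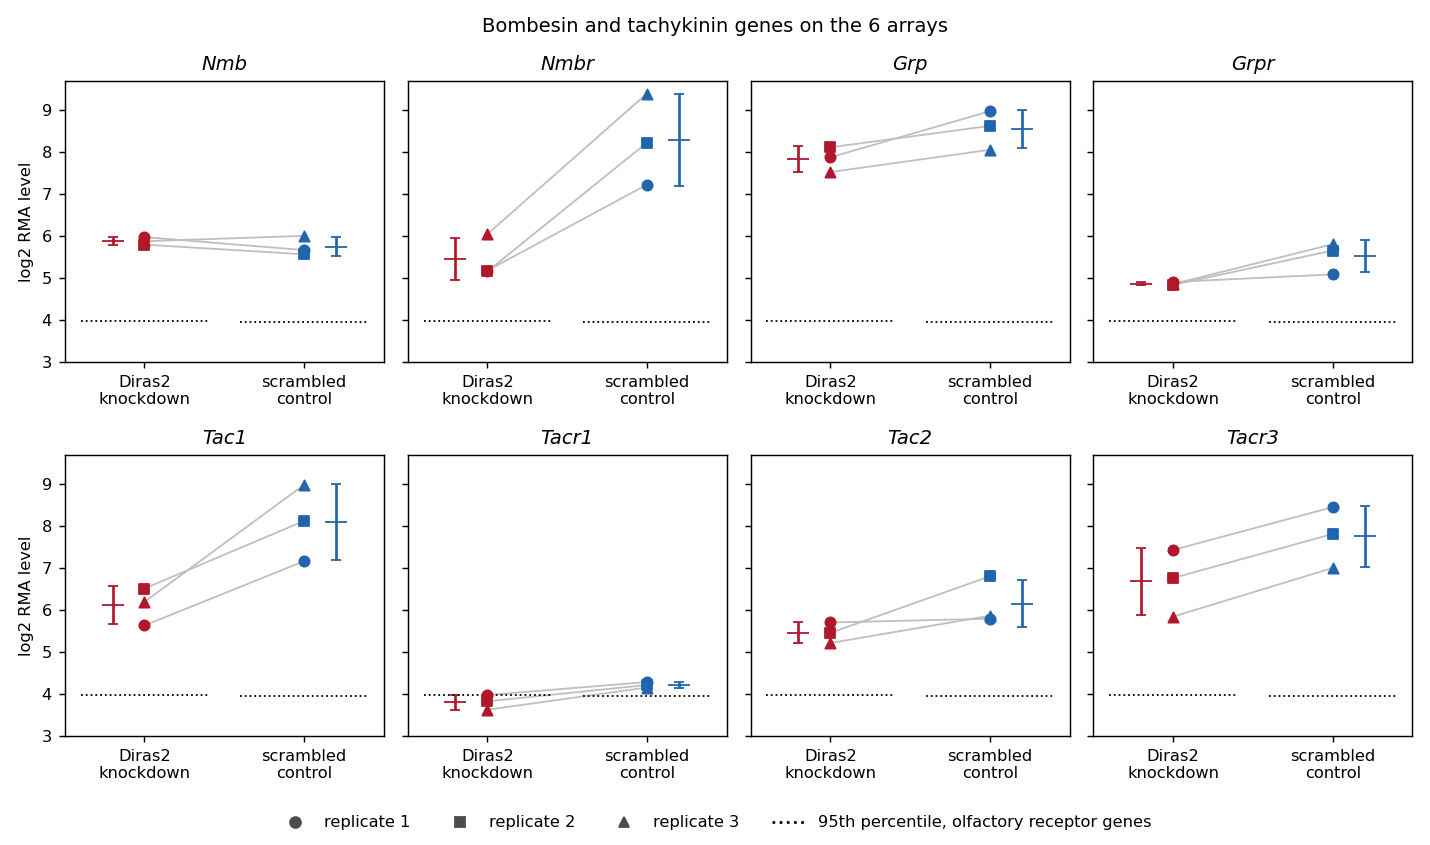
Log2 RMA level (vertical axis) of each gene in the 3 Diras2 knockdown arrays (red, left) and the 3 scrambled control arrays (blue, right), with grey lines joining arrays of the same replicate number and bars at the side for the mean and SD. Nmbr and Tac1 are separated most, Tacr3 is lower by a like amount in all 3 pairs, and Tacr1 lies at the dotted line, the 95th percentile of olfactory receptor genes.

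Across genes, deviations from the group means correlated at 0.427, 0.121 and 0.374 between knockdown and control arrays numbered 1, 2 and 3. The value for number 2 was little above the 0.057 of knockdown replicate 2 with control replicate 3. On that ground, which is in these data and not in the labels, a second fit took the replicate number as a block. Its calls rest on this pairing. In that fit 6 of the 8 genes were called lower, Nmbr, Tac1, Tacr3, Grp, Tacr1 and Grpr, where 5.64% of all genes were. None was called higher, where 6.05% of all genes were. With 1 pair left out in turn, which leaves 4 arrays, the count was 2 without pair 1 and 0 without pair 2 or 3, where Diras2 was not called either. Within each of the 3 same-numbered pairs the knockdown array was the lower one for 7 of 8 genes, where 22.0% of all genes showed this.

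**Figure D2:**
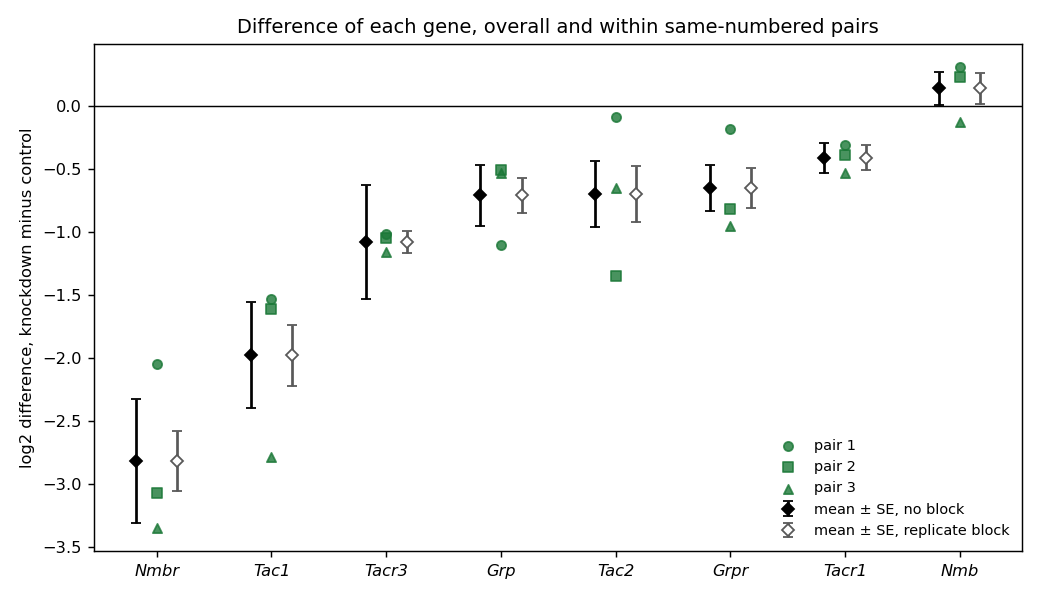
Log2 difference, knockdown minus control (vertical axis), of each gene, with the mean and its SE from the fit without the block (filled diamonds) and with it (open diamonds), and the difference within each same-numbered pair (green). The 3 pairs of Tacr3 lie together at -1.02, -1.05 and -1.16, whereas those of Tac2 run from -1.35 to -0.09.

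Among the peptide precursors, Tac1 showed the largest difference. Its level was 5.64, 6.52 and 6.20 in the knockdown arrays, against 7.17, 8.13 and 8.99 in the control arrays. The groups did not overlap, and the highest knockdown array was 0.65 below the lowest control array. The mean was 6.12 ± 0.45 in the knockdown and 8.10 ± 0.91 in the control (SD, n = 3 each), a log2 difference of -1.98 (SE 0.42) or 3.94-fold lower. Within pairs the differences were -1.53, -1.61 and -2.79. The control arrays were spread more widely than the knockdown arrays, and without control replicate 3, the highest, the difference was -1.53. The difference stayed below 0 without any single array, but Tac1 was no longer called when any 1 knockdown array was left out (-1.74, -2.18 and -2.02 without replicates 1, 2 and 3) or without control replicate 2 (-1.96).

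Tac2, the neurokinin B precursor, was lower in the knockdown by less than its spread allows to call. It was at 5.71, 5.46 and 5.22 in the knockdown arrays, against 5.80, 6.81 and 5.87 in the control arrays. The groups did not overlap, yet only 0.09 separated the arrays numbered 1, and control replicate 2 stood well above the other controls. The log2 difference was -0.70 (SE 0.26, adjusted p 0.175 by limma) and -0.37 without control replicate 2. With the replicate block its adjusted p was 0.0989.

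Grp, the precursor of gastrin-releasing peptide, was at 7.88, 8.12 and 7.53 in the knockdown arrays, against 8.98, 8.63 and 8.06 in the control arrays. The groups overlapped, since knockdown replicate 2 was above control replicate 3, but in each pair the knockdown array was the lower one, with log2 differences of -1.10, -0.51 and -0.53. The difference of the means was -0.71 (SE 0.24), 1.64-fold, with an adjusted p by limma of 0.128, and of 0.0229 with the replicate block. Without control replicate 3 the difference was -0.96 and the adjusted p 0.0308.

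Nmb, the neuromedin B precursor, was the only gene of the family above 0. It was at 5.98, 5.80 and 5.88 in the knockdown arrays, against 5.67, 5.57 and 6.01 in the control arrays, and the groups overlapped. The log2 difference was 0.14 (SE 0.13, adjusted p 0.649 by limma), with a 95% interval of the difference of -0.17 to 0.44. Without control replicate 2 the difference was 0.05 and without control replicate 3 it was 0.27. Whether Nmb differed from the others was not tested.

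Among the receptors, Nmbr showed the largest difference of the family. It was at 5.18, 5.16 and 6.05 in the knockdown arrays, against 7.23, 8.23 and 9.40 in the control arrays, with no overlap and 1.18 between the nearest arrays. The mean was 5.46 ± 0.51 in the knockdown and 8.29 ± 1.09 in the control (SD, n = 3 each), 7.08-fold lower. Within pairs the log2 differences were -2.05, -3.07 and -3.35. Its call was lost without knockdown replicate 2 (-2.67) or control replicate 2 (-2.85), although the difference hardly moved. A dimmer probe set that the annotation gives to both Nmbr and 1700016L04Rik, and which therefore stands for neither, was at 3.96, 4.31 and 4.48 in the knockdown arrays and at 4.47, 4.97 and 5.55 in the control arrays. Its groups overlapped by 0.01, and its log2 difference was -0.75 (SE 0.27).

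Grpr, the receptor for gastrin-releasing peptide, was at 4.91, 4.84 and 4.86 in the knockdown arrays, against 5.09, 5.66 and 5.81 in the control arrays. The knockdown arrays lay within 0.07 of each other, while control replicate 1 was nearer to them than to the other controls. The log2 difference was -0.65 (SE 0.18), 1.57-fold, with an adjusted p by limma of 0.0675. It was 0.0475 with the replicate block and 0.00614 without control replicate 1, where the difference was -0.86.

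Tacr3, the neurokinin B receptor, varied widely within each group. It was at 7.44, 6.77 and 5.85 in the knockdown arrays, against 8.46, 7.82 and 7.01 in the control arrays, so knockdown replicate 1 was above control replicate 3. Each knockdown array was nevertheless below its same-numbered control by nearly the same amount, with log2 differences of -1.02, -1.05 and -1.16. The log2 difference of -1.08, 2.11-fold, had an SE of 0.45 and an adjusted p by limma of 0.216 without the block. Without knockdown replicate 3 the difference was -0.66, and over the 6 fits that each leave out 1 array it ran from -1.45 to -0.66. With the replicate block the SE was 0.09 and the adjusted p 0.00193.

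Tacr1, the substance P receptor, was the dimmest of the family. It was at 3.98, 3.83 and 3.63 in the knockdown arrays, at or below the level of 3.98 that marks the dim end, against 4.29, 4.22 and 4.16 in the control arrays, just above it. The groups did not overlap. The log2 difference was -0.41 (SE 0.12), 1.33-fold, with an adjusted p by limma of 0.0760, and of 0.0428 with the replicate block. RMA pulls weak signals towards a floor, so a fold with 1 group at this level can be understated. The remaining genes of both families, Tacr2 (neurokinin A receptor), Tac4 (hemokinin precursor) and Brs3 (an orphan receptor related to Nmbr and Grpr), had means at or below that level in both groups. Their log2 differences were -0.03, 0.08 and 0.01.

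Promoter sequences are shown for Nmbr and Tac1, which differed most, and for Tacr3 and Grpr, receptors that were lower in every pair. Tacr1 and Tac2, also lower in every pair, and Nmb were searched but are not shown. No window was matched for Grp. Each sequence shown is the 250 bases before the gene start from RefSeq (GRCm38.p6), 5′ to 3′ on the strand of the gene. Nmbr lies at chr10:14759697-14759946 (+), Tac1 at chr6:7554811-7555060 (+), Tacr3 at chr3:134828757-134829006 (+) and Grpr at chrX:163549737-163549986 (-). Capitals mark TGACG, the half-site of the cAMP response element, on either strand, so that CGTCA is a match on the opposite strand.
Nmbr: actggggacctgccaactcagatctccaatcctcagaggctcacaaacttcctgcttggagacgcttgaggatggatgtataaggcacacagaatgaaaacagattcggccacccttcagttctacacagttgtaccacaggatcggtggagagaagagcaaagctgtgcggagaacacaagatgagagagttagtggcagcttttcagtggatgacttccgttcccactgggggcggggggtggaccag
Tac1: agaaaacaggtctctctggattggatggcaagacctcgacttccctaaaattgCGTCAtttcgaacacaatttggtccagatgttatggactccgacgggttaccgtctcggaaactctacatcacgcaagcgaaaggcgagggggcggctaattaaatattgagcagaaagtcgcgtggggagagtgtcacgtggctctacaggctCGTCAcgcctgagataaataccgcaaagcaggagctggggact
Tacr3: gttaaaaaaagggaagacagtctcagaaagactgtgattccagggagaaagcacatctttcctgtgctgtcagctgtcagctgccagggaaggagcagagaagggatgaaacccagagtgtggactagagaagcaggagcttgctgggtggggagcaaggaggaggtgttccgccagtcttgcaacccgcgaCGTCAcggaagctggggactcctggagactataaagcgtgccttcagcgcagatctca
Grpr: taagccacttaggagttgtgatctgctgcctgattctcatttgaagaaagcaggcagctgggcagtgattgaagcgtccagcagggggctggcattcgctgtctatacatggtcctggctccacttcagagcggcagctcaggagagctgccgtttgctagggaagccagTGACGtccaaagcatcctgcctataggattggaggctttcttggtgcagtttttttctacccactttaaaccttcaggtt
The windows searched ran from 250 bases before to 50 after the start. TGACG was found in 4 of the 7 windows of the family that were matched, those of Tac1, Tacr3, Grpr and Tacr1, and in 20.8% of all 32851 windows. Tac1 held it at -197 and -43 and Tacr3 at -58, all on the opposite strand, and Grpr at -80 on the strand of the gene. The AP-1 element TGANTCA was in 0 of the 7 and in 7.81% of all windows. These letters overlap in no window of the family. Nmbr, with the largest difference, held neither, and a match is a description of the letters only.

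Within groups, the genes of the family ranked the arrays differently. Tac1 and Nmbr were lowest in control replicate 1, 0.93 and 1.06 below their control means, and highest in control replicate 3, 0.89 and 1.11 above them. Tacr3 and Grp ran the other way, with control replicate 1 at 0.70 and 0.42 above the mean and control replicate 3 at 0.75 and 0.50 below it. The peptide precursors Sst, Npy, Cort and Pnoc, which inhibitory neurons make and which were named after their values were seen, were also lowest in the arrays numbered 1 of both groups. Vip and Cck, peptide precursors that other inhibitory neurons make, were not, and averaged 0.27 and 0.23 above their group means in the arrays numbered 1. All 6 markers of hippocampal excitatory neurons were highest in the arrays numbered 1 of both groups. For Tacr3 the spread was nearly equal in both groups, 0.75, 0.08 and -0.84 in the knockdown against 0.70, 0.06 and -0.75 in the control.

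**Figure D3:**
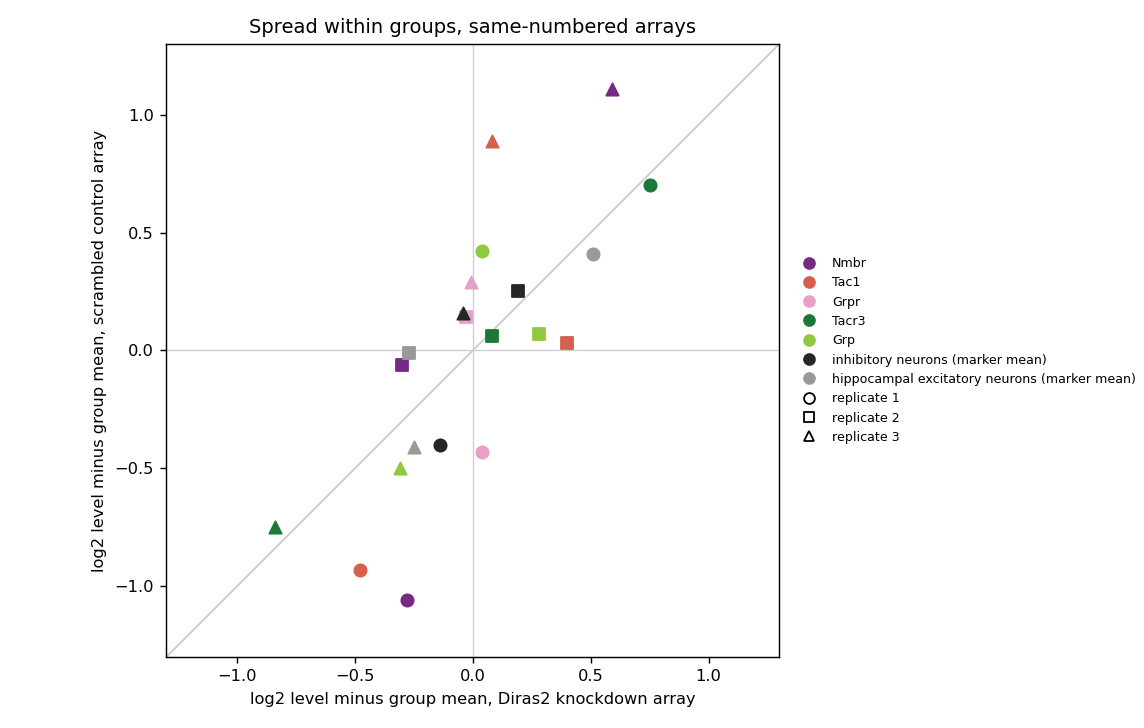
Log2 level minus the group mean in each knockdown array (horizontal axis) and in the control array of the same number (vertical axis), for 5 genes of the family and the mean of 2 marker lists, where the symbol gives the replicate number and the grey diagonal marks equal deviation. Tacr3 lies along the diagonal, with replicate 1 high and replicate 3 low, whereas Nmbr and Tac1 have replicate 1 low in both groups.

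Markers of inhibitory neurons were mostly lower in the knockdown arrays, each by less than Tac1 and Nmbr. Their mean level was 7.36, 7.70 and 7.46 in the knockdown arrays, against 7.54, 8.18 and 8.10 in the control arrays. Of the 8 measured, 7 lay below 0 with a median log2 difference of -0.45. Of them 1, Lhx6 at -1.20, was called lower, where 3.64% of all genes were. The others were Dlx2 at -0.60, Erbb4 at -0.52, Gad2 and Sp9 at -0.45, Slc32a1 at -0.22, Dlx5 at -0.11 and Gad1 at 0.11. With the replicate block 2 were called lower, where 5.64% of all genes were, adding Dlx2 (adjusted p 0.0442). None of the 8 lay at the dim end. Their part in the differences of the peptide genes was not tested, and in bulk samples fewer cells of a type and less RNA per cell cannot be told apart. Markers of hippocampal excitatory neurons had a median difference of 0.20, and 0 of 6 were called by limma, where 1 had an unadjusted p under 0.05. With the replicate block 1 was called lower, Wfs1 at -0.63 (adjusted p 0.0108). Among the 6 neuronal markers Snap25, a synaptic protein, was called lower at -0.51 (adjusted p by limma 0.0471), and the median difference was -0.06. The block added Syt1, a synaptic vesicle protein, at -0.58 (0.0130). The lists for astrocytes, the oligodendrocyte lineage, microglia, endothelial and mural cells, and fibroblasts had medians of -0.12, 0.18, -0.09, 0.03 and 0.21. In that order 4 of 7, 2 of 6, 5 of 6, 2 of 6 and 1 of 5 measured genes lay below 0. Of the genes in these lists Pdgfra, a marker of oligodendrocyte precursors, was called higher at 2.80 (adjusted p by limma 0.0104), where 4.17% of all genes were. Rgs5, a marker of mural cells, was called lower at -1.40 (adjusted p by limma 0.00258), where 3.64% of all genes were. With the block 3 more were called lower, where 5.64% of all genes were. These were the astrocyte marker Gja1 at -0.59 (adjusted p 0.0385), the microglial marker Csf1r at -0.46 (0.0339) and the fibroblast marker Lum at -0.74 (0.0442). Lum was the only gene of its list below 0. Lum was at the dim end, at 3.29, 3.01 and 3.83 in the knockdown arrays and 4.40, 3.92 and 4.03 in the control arrays. The part of these genes in the results was not tested either.

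Of 13 measured genes for the enzymes and vesicle proteins that mature neuropeptides, 1 was called higher, 1 lower and 11 neither, where 4.17% and 3.64% of all genes were called higher and lower. With the block 6.05% and 5.64% of all genes were, and these shares apply to each list below. The median log2 difference of the 13 genes was -0.26. Pcsk1, a convertase that cuts peptide precursors, fell to 7.42 ± 0.23 in the knockdown, against 8.04 ± 0.22 in the control (SD, n = 3 each), with an adjusted p by limma of 0.0497. Furin, the convertase of the trans-Golgi, rose to 7.99 ± 0.14 in the knockdown, against 7.48 ± 0.12 in the control, with an adjusted p of 0.0349. Both calls are marginal. That of Pcsk1 was lost without knockdown replicate 1 (0.134) or 3 (0.162) and without control replicate 1 (0.109) or 2 (0.149), and that of Furin without any array (0.0526 to 0.131) but knockdown replicate 1. That of Pcsk1 was also lost with median centring (0.0609), robust fitting (0.0507), the mean of probe sets (just past the threshold) and all probe sets tested (0.113), and that of Furin with RNA integrity as a covariate (0.117) and all probe sets tested (0.0829). With the block 1 was called higher and 3 lower, adding Scg2, a secretogranin, at -0.84 (0.00674), and Qpct, which forms pyroglutamate at peptide ends, at -0.78 (0.00485).

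Of 10 measured peptide-degrading enzymes 1 was called lower, 0 higher (2 at an unadjusted p under 0.05 by limma) and 9 neither, and the median log2 difference was -0.02. Ece2, an endothelin-converting enzyme, fell to 5.50 ± 0.40 in the knockdown, against 6.28 ± 0.04 in the control (SD, n = 3 each), with an adjusted p by limma of 0.0405. This call was lost without any array (0.0811 to 0.135) but knockdown replicate 1. It was also lost with median centring (0.0578), RNA integrity as a covariate (0.162) and all probe sets tested (0.0974). Mme, neprilysin, which cleaves substance P, was at 5.69, 4.91 and 5.90 in the knockdown arrays, against 6.35, 5.96 and 6.77 in the control arrays. Its log2 difference was -0.86, with an adjusted p by limma of 0.119, and of 0.00552 with the block, under which 2 enzymes were called lower and 1, Ece1 at 0.50 (0.0459), higher.

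Downstream of the receptors, Prkce, a protein kinase C that phospholipase C products activate, rose 2.39-fold. It was at 10.88, 10.57 and 10.49 in the knockdown arrays, against 9.86, 9.39 and 8.91 in the control arrays, with an adjusted p by limma of 0.0145. It was the 1 gene called higher of 14 measured in the Gq and phospholipase C pathway, where 0 were called lower (0 at an unadjusted p under 0.05 by limma), 13 neither, and the median was 0.08. Its call was lost without knockdown replicate 2 (0.0586) or control replicate 2 (0.0660). Adding the RNA integrity number as a covariate also ended it (0.0681). With the block 3 were called higher, adding Gna11, a Gq-class G protein, at 0.43 (adjusted p 0.0341) and Ptk2b, a calcium-activated tyrosine kinase, at 0.51 (0.0329).

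Among 7 measured desensitisation genes 1 was called lower, 0 higher (1 at an unadjusted p under 0.05 by limma) and 6 neither, with a median of -0.15. Grk5, a kinase that phosphorylates active receptors, fell to 6.20 ± 0.26 in the knockdown, against 6.87 ± 0.04 in the control (SD, n = 3 each), with an adjusted p by limma of 0.0238. The call was lost without any array (0.0529 to 0.0956) but knockdown replicate 1, with the RNA integrity covariate (0.109) and in the fit over all probe sets (0.0624). With the block 2 were called lower and 1 higher, adding Rgs2, which limits Gq signalling, at -0.68 (adjusted p 0.0495) and Arrb2, a beta-arrestin, at 0.40 (0.0452).

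Substance P is known to activate the neuronal sodium leak channel in a way that needs its subunit Unc80. Unc80 was at 8.19, 7.91 and 8.04 in the knockdown arrays, against 6.16, 5.99 and 6.05 in the control arrays, with an adjusted p by limma of 0.000213. It was the 1 gene called of 5 measured in the list for this complex, which includes the kinases Src and Fyn. The pore subunit Nalcn had a log2 difference of 0.04, Unc79 of -0.06, Src of -0.07 and Fyn of -0.09.

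**Figure D4:**
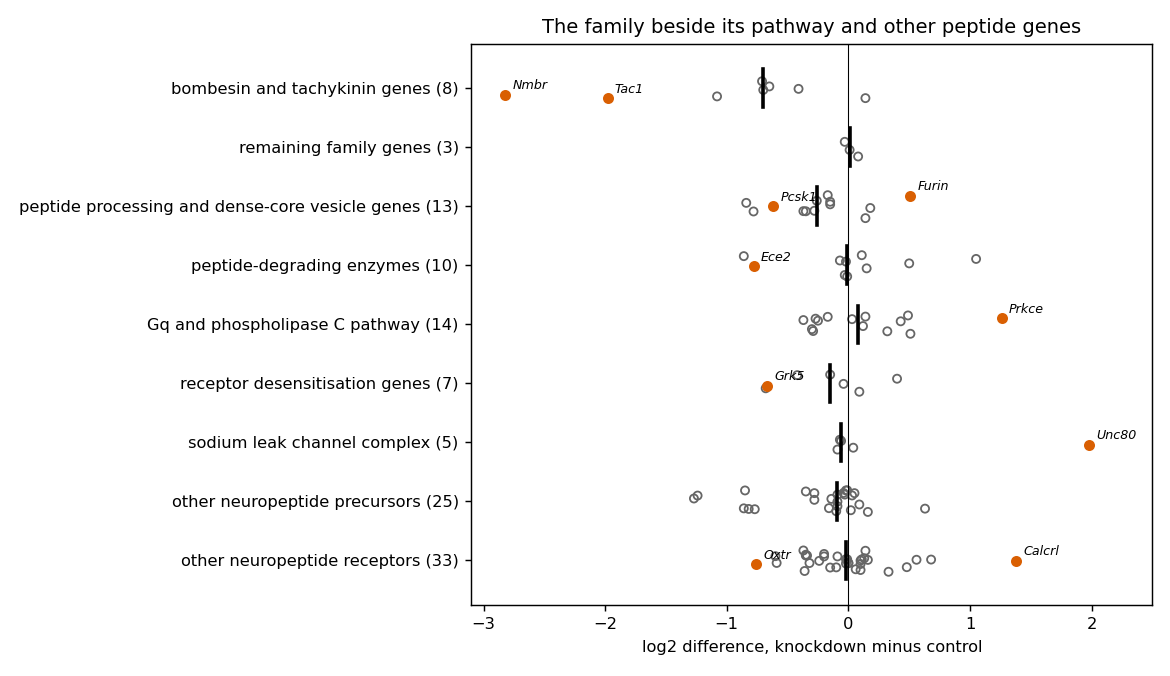
Log2 difference, knockdown minus control (horizontal axis), of each measured gene in the family and in 8 lists, with the number measured in brackets, the median as a bar and genes called by limma filled and named. The family, chosen with the values of Nmbr and Tac1 known, has a median of -0.70, and the 25 other precursors hold no gene called without the block, under which 7 were called.

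Other neuropeptide genes set the family in context. Of 25 measured precursors 6 lay in both groups at or below the level that marks the dim end. Of the 8 family genes 0 did, though Tacr1 lay above it only in the control. Tacr2, Tac4 and Brs3, of the same families but outside the 8, all did. Of the 25, 0 were called and 19 had a negative log2 difference, with a median of -0.09. At an unadjusted p under 0.05 there were 1 lower and 1 higher by limma. With the replicate block 6 of the 25 were called lower and 1 higher, where 5.64% and 6.05% of all genes were. The 6 were Adcyap1, the precursor of PACAP, at -1.27 (adjusted p 0.0137), Npy at -1.24 (0.00767), Penk, proenkephalin, at -0.86 (0.0122), Cort, cortistatin, at -0.85 (0.00688), Sst, somatostatin, at -0.82 (0.00806) and Pnoc, pronociceptin, at -0.77 (0.0338). The 1 called higher was Nppc, C-type natriuretic peptide, at 0.63 (0.00880). Without the block the adjusted p-values of these 7 by limma ran from 0.0856 to 0.655. Npy was at 7.39, 8.97 and 9.76 in the knockdown arrays against 8.11, 10.34 and 11.40 in the control arrays, so that the groups overlapped while each knockdown array was below its same-numbered control.

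Of 33 measured receptors for other neuropeptides 1 was called higher, 1 lower and 31 neither, and the median log2 difference was -0.02. Of the 33, 6 lay at or below the dim level in both groups. Calcrl, the receptor for CGRP and adrenomedullin, was at 5.33, 5.16 and 5.07 in the knockdown arrays, against 3.92, 3.82 and 3.69 in the control arrays. The control values were at the dim end. Its adjusted p by limma was 0.000741. Oxtr, the oxytocin receptor, fell to 5.04 ± 0.24 in the knockdown, against 5.80 ± 0.21 in the control (SD, n = 3 each), with an adjusted p of 0.0244. Its call was lost without knockdown replicate 2 (0.0965) or 3 (0.0895) and control replicate 1 (0.0534) or 2 (0.0764), with the RNA integrity covariate (0.0841) and in the fit over all probe sets (0.0643). With the block 4 were called higher and 1 lower, adding Ntsr1 at 0.68 (adjusted p 0.0362), Crhr1 at 0.56 (0.0492) and Sstr2 at 0.48 (0.0462), receptors for neurotensin, corticotropin-releasing hormone and somatostatin.

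The genes whose 6 values, centred on their mean, came closest to those of Nmbr were found by the root mean square difference over the 6 arrays. They were Crhbp (0.59), which binds corticotropin-releasing hormone, Siah3 (0.60), Ly96 (0.71), a partner of Toll-like receptor 4, Tmem255a (0.73) and Dap (0.74). Within the family Tac1 was as close to Nmbr, at 0.57, and Grpr followed at 1.21. Closest to Tac1 were Igf1 (0.30), insulin-like growth factor 1, Ly96 (0.33), Adcyap1 (0.37), Tmem255a (0.38) and Spa17 (0.39). Ly96 and Tmem255a were thus on both lists. Igf1 was at 5.42, 6.29 and 6.12 in the knockdown arrays, against 6.42, 7.87 and 8.11 in the control arrays, and like Tac1 it was lowest in the arrays numbered 1. These genes were picked for their likeness, so their values are a description.

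**Figure D5:**
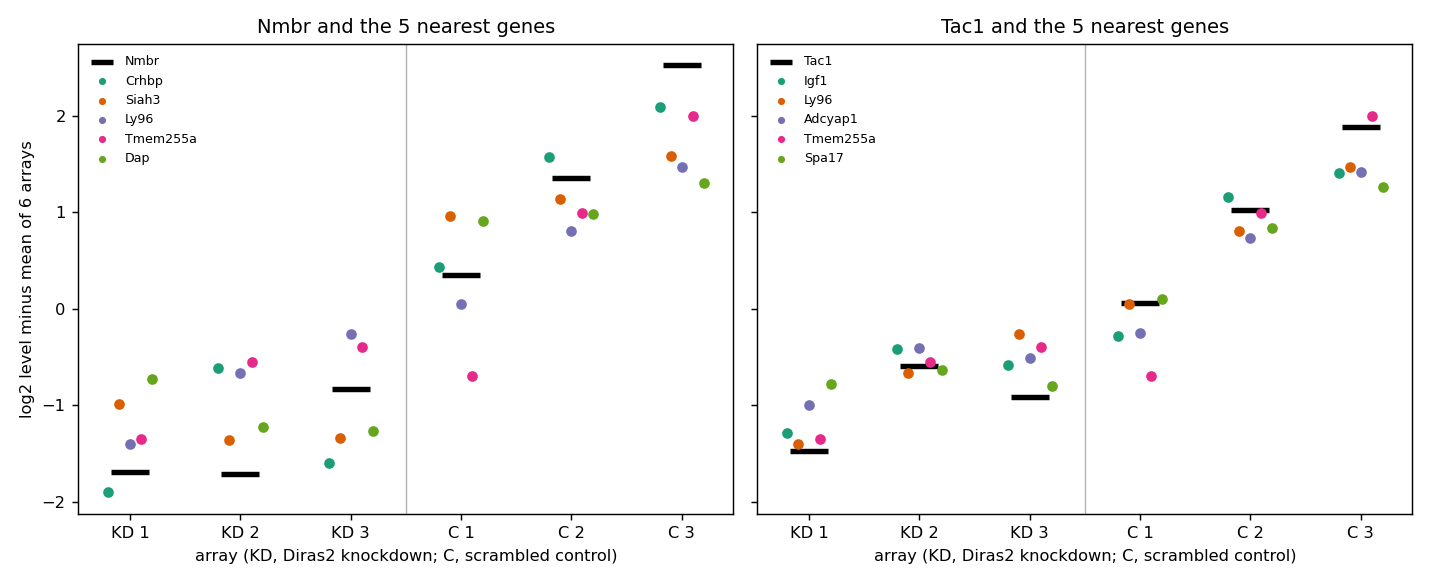
Log2 level minus the mean of the 6 arrays (vertical axis) on each array (horizontal axis), for Nmbr (left) and Tac1 (right) as black bars and for the 5 nearest genes of each as points. In both panels the 3 knockdown arrays lie below 0 and control replicate 3 lies highest for the named gene.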

How the data were processed

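Total RNA of 6 samples was labelled and read on Affymetrix whole-transcript arrays, per the labels' protocols. The submitters' processing notes name Affymetrix Expression Console 1.2.1.20 and RMA, and the deposited table holds the resulting log2 values of all probe sets. RMA gives the arrays a common distribution, which hides a shift of most genes in one direction. Scanner files, detection calls and the array's genome build were not used here. Of 41345 probe sets 23521 are annotated with 1 gene symbol, 1814 with several and 16010 with none here. The 22180 genes tested took the brightest of their probe sets, and 21994 were matched by Entrez number to RefSeq (GRCm38.p6).

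Groups follow the titles. Knockdown minus control was fitted with limma 3.58.1 (R 4.3.3, no trend) over all genes, with Benjamini-Hochberg adjustment and calls at an adjusted p under 0.05. Deviations from group means correlated across genes at 0.427, 0.121 and 0.374 in the same-numbered pairs, all above 0.1 (other pairs -0.378 to 0.057). These correlations are not independent of each other, since deviations are taken from the mean of the same 3 arrays. On that ground, which is in the data and not in the labels, a second fit took same-numbered samples as pairs. Calls given without mention of the block come from the fit without it. Where the block changes a call, its value stands beside the result. The fit without the block was run on simulated data with independent noise on each array. The fit with the block was not tested in this way. The members and lists were chosen with earlier results of these data known. Named are the 8 members, Diras2, the remaining family genes, up to 4 called genes of a list or else the 1 with the smallest p, and the 5 genes nearest to Nmbr and to Tac1. Genes called only with the block, and others marked so, were named after their values were seen. List genes without a probe set of their own under the listed name (7 of 117) were left out. The search of precursor proteins for peptide motifs was not run, for want of protein sequences here. Figures were drawn with matplotlib 3.10.9.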

Additional observations from a re-analysis of the deposited data

How the results depend on the processing

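The directions of the 8 family genes were the same under all 18 alternatives, namely quantile normalisation, the replicate block, each array left out in turn, median centring, a filter on dim genes, RNA integrity as a covariate, an intensity trend, robust fitting, the mean of probe sets, all probe sets tested and, chosen after seeing the data, the block with 1 pair left out. The number called lower was 6 with the replicate block, 1 with RNA integrity as a covariate or with all probe sets tested, where Tac1 was not called, and 0 to 3 without 1 array in turn. With the block and 4 arrays it was 0 without pair 2 or pair 3. The number called higher was 0 throughout. Of the 110 genes of the pathway lists 4 were called lower. That count was 14 with the replicate block, 2 with median centring, 1 with RNA integrity as a covariate, 0 with all probe sets tested, 0 to 4 without 1 array, and 1, 0 and 0 with the block without pair 1, 2 or 3. Of the same genes 4 were called higher, against 12 with the replicate block, 7 with the filter on dim genes, 2 with RNA integrity as a covariate, 2 to 5 without 1 array and 2, 0 and 0 with the block without pair 1, 2 or 3. Over all genes the block called 1252 lower and 1341 higher, against 807 and 924 without it. Tacr2, Tac4 and Brs3, all near 0, changed sign in places. Without 1 array Tacr2 ran from -0.23 to 0.14 and Brs3 from -0.05 to 0.08. Under the block Tacr2 was at 0.03 without pair 1 and 0.07 without pair 2, Tac4 at -0.03 without pair 1, and Brs3 at -0.08 without pair 2 and -0.01 without pair 3, as it was -0.09 with RNA integrity as a covariate. Fewer samples are left in the fits that leave out arrays or pairs, and for the other changes the cause was not tested. Signals near the dim end, as for Tacr1, limit what a fold shows.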
